A study of Mus musculus with 18 samples.

Results

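The 9 genes described here, Ccr1, Ccr2, Ccr3, Ccr7, Ccrl2, Cx3cr1, Cxcr4, Fpr1 and Fpr2, encode chemokine and chemoattractant receptors. They were found by their gene symbols among the 38887 genes quantified in the series. No measured value enters that rule, but the set was drawn up with earlier results of these data known. Bone marrow-derived macrophages (BMMs), which are macrophages grown from bone marrow cells with the growth factor M-CSF for 6 days, came from female C57BL/6J mice aged 10 to 23 weeks. Each of 3 genotypes was sequenced untreated and after 4 h with 100 ng/ml of lipopolysaccharide (LPS), a bacterial cell wall component that macrophages sense through TLR4, with 3 libraries in each of the 6 groups. All mice carried Cre recombinase in the Lyz2 gene, which is active in myeloid cells, and mice with this allele alone served as wild type (WT). In GILZ KO mice, exon 6 of Tsc22d3, the gene of glucocorticoid-induced leucine zipper (GILZ), was flanked by loxP sites and removed by Cre. In GILZ TG mice, Cre removed a stop cassette in front of a Gilz-1 cDNA in the ROSA26 locus.

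Chemokine receptors are G protein-coupled receptors that steer leukocytes along gradients of small secreted proteins. Ccr2 guides monocytes out of the bone marrow, Cx3cr1 binds the membrane-tethered chemokine fractalkine and marks resident monocytes and macrophages, and Cxcr4 retains cells in the bone marrow through Cxcl12. Ccr1 and Ccr3 bind overlapping sets of inflammatory CC chemokines, and Ccr7 leads mature dendritic cells to lymph nodes. Ccrl2 is an atypical receptor that binds chemerin without signalling through G proteins, while Fpr1 and Fpr2 sense formylated peptides released by bacteria and damaged mitochondria.

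Libraries held between 14583055 and 38557029 estimated gene counts, with a median of 24450362. Tsc22d3 was at 14.88 to 18.84 TPM (transcript counts corrected for length and scaled to the same total in each library) in untreated WT, at 1.89 to 2.81 TPM in untreated GILZ KO and at 151.97 to 159.83 TPM in untreated GILZ TG. After LPS the range was 4.56 to 5.81 TPM in WT and 2.5 to 3.28 TPM in GILZ KO, a difference that did not pass the test (edgeR adjusted p = 0.15), and 127.22 to 140.56 TPM in GILZ TG. Lyz2 itself was at 6766 TPM or more in the 6 WT libraries and at 70.25 TPM or less in the 12 others, so in any comparison with WT the GILZ genotype and the difference in Lyz2 cannot be told apart. The 8 macrophage markers, Csf1r and Adgre1 among them, summed to between 3971 and 5046 TPM in all 18 libraries. Replicates 1 and 2 of GILZ TG stood apart from the other libraries in both treatments. Their 7 stromal fibroblast markers summed to 80.17 to 115.03 TPM, against 4.88 to 21.82 TPM in the other 14 libraries, their 10 neutrophil lineage markers to 188.25 to 517.64 TPM against 21.27 to 84.26 TPM, and their 5 B cell markers, nearly all Igkc, to 46.90 to 106.67 TPM against 3.91 to 19.29 TPM. The B cell marker Cd79b was lower in all 3 untreated GILZ TG libraries (7.05, 9.05 and 7.88 TPM) than in untreated WT and GILZ KO (9.23 to 13.39 TPM). Lum reached at most 0.31 TPM, Ly6g 0.24 TPM and Ms4a1 0.08 TPM in any library. Mast cell or basophil markers were low but also highest in replicates 1 and 2 of GILZ TG, at 0.29 to 0.64 TPM against 0 to 0.23 TPM in the others. The remaining lists did not separate these libraries: monocyte markers summed to 9.03 to 32.34 TPM, T cell markers to at most 9.95 TPM with Cd3d and Cd3e at 0 throughout, endothelial markers to at most 12.19 TPM, and eosinophil, erythroid and dendritic cell markers to at most 1.51, 1.37 and 0.92 TPM. Replicate 3 of GILZ TG carried part of the same pattern at a lower level. Its Igkc was at 11.36 TPM untreated and 7.28 TPM after LPS, against at most 2.22 TPM in WT and GILZ KO. Its neutrophil lineage sums, 70.11 and 84.26 TPM, were above those of WT and GILZ KO of the same treatment (at most 61.47 and 77.8 TPM). Its stromal sums, 9.75 and 10.3 TPM, were below those of WT. Values with GILZ TG replicate 3 alone are given where they changed a call or moved a difference that is described by more than 1.5 times.

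**Figure D1:**
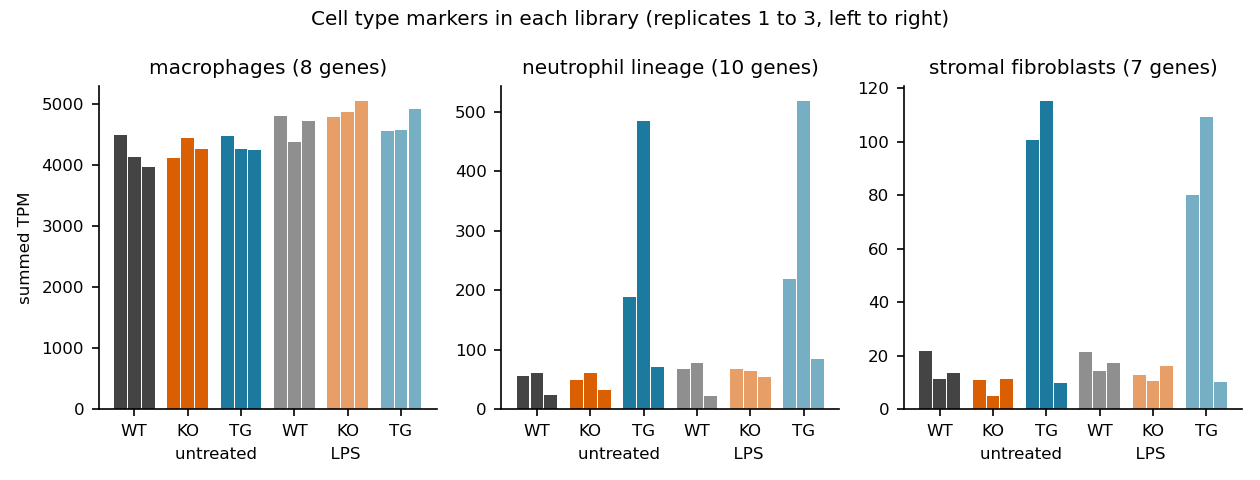
Summed TPM (y axis, linear, from 0) of 8 macrophage, 10 neutrophil lineage and 7 stromal fibroblast markers in each of the 18 libraries, 1 bar a library, grouped by genotype (WT, GILZ KO, GILZ TG) and treatment. Macrophage sums lie between 3971 and 5046 TPM throughout, while replicates 1 and 2 of GILZ TG carry the 4 highest neutrophil lineage and stromal sums.

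Of the 9 receptors, 5 lie on mouse chromosome 9 (GRCm38 coordinates, GENCODE annotation). Ccr1 (chr9:123962124-123968692, minus strand), Ccr3 (chr9:124021972-124031689, plus strand) and Ccr2 (chr9:124101950-124113557, plus strand) sit within 151434 bp. Ccrl2 (chr9:111054486-111057519, minus strand) lies 12904605 bp before Ccr1, and Cx3cr1 (chr9:119901616-120069879, minus strand) has a long annotated transcript that overlaps other genes. Fpr1 (chr17:17876471-17883940, minus strand) and Fpr2 (chr17:17887824-17893952, plus strand) lie 3884 bp apart in opposite orientation, and Fpr2 overlaps the annotated span of Fpr3, which had at most 6 counts in any library. Cxcr4 is at chr1:128588199-128592293 and Ccr7 at chr11:99144196-99155077, both on the minus strand. The counts of Ccr2 were not whole numbers in any of the 18 libraries, since part of its reads was shared out between similar sequences, and its level is uncertain to that extent.

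RefSeq start sites on GRCm38.p6 were given for 8 of the 9 receptors. In the 300 bases from 250 before to 50 after each start, 4 short motifs were searched on both strands. The NF-kB consensus motif was found in Ccrl2, Ccr1 and Ccr3, at 1 start site each, and in 8.46% of all 32851 mouse start regions. The PU.1 core GAGGAA was found in Ccr1, Ccr3 and Fpr2 and in 28.3% of all start regions, the AP-1 motif TGANTCA in Ccr3 and in 7.81%, and the interferon-stimulated response element (GAAA, any 2 bases, GAAA) in none of the 8 and in 3.44%. In Ccr3 the PU.1 and NF-kB matches share bases. The 250 bases before the start are shown for the 3 receptors with the greatest rise after LPS, for the one with the greatest fall, and for Ccr3, which held 3 of the 4 motifs, 5′ to 3′ on the strand of the gene, with motif matches in capitals. They stand at chr9:111057519-111057768 (Ccrl2), chr17:17887574-17887823 (Fpr2), chr17:17883940-17884189 (Fpr1), chr9:124021721-124021970 (Ccr3) and chr1:128592300-128592549 (Cxcr4).
Ccrl2: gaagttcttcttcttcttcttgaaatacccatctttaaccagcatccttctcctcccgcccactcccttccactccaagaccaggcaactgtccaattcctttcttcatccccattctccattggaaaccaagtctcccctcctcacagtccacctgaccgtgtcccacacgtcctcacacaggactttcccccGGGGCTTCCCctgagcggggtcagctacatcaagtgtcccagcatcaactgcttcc
Fpr2: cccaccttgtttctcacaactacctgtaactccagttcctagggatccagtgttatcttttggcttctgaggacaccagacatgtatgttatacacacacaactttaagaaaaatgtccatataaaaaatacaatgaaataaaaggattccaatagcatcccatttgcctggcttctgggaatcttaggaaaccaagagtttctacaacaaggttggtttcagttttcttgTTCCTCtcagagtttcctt
Fpr1: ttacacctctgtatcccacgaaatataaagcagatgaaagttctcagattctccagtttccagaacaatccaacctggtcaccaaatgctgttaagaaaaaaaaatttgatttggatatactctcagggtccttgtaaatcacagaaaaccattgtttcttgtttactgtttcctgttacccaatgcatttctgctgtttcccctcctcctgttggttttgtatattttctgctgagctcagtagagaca
Ccr3: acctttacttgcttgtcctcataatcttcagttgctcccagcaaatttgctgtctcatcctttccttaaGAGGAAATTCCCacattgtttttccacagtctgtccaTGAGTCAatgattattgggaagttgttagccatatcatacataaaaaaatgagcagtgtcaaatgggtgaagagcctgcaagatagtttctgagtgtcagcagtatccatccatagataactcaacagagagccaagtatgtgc
Cxcr4: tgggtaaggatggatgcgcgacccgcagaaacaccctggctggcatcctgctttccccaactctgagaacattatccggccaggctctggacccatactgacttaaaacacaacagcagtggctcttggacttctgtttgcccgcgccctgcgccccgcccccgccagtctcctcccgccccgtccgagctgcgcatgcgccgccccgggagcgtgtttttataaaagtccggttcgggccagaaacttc
Fpr1 and Cxcr4 held none of the 4 motifs in this window. A match is a run of letters and not a measured binding site.

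In untreated WT BMMs, Cx3cr1 was the most abundant of the receptors at 35.6 ± 6.87 TPM (SD, n = 3), followed by Ccr1 at 23.5 ± 2.04 TPM and Ccr2 at 11.5 ± 2.61 TPM. The libraries of Cx3cr1 and Ccr1 did not overlap, nor did those of Ccr1 and Ccr2. Cxcr4, Ccr3, Fpr1 and Fpr2 followed between 8.05 and 4.72 TPM, and each neighbour in this order overlapped the next. Ccrl2 was far lower at 1.73 ± 0.0513 TPM, and Ccr7 had no read in any untreated WT library, which allows at most 0.107 TPM by counting error. After LPS the order in WT was Ccrl2, Fpr2, Fpr1, Ccr1, Ccr3, Ccr2, Cx3cr1, Cxcr4 and Ccr7, and no neighbours in it overlapped. The last step rests on 4, 4 and 5 reads of Cxcr4 and 3, 2 and 4 reads of Ccr7, too few to order these receptors. Ccrl2 made up 1.74% of the summed TPM of the 9 receptors in untreated WT and 50.2% after LPS, and Cx3cr1 fell from 35.8% to 0.427%. GILZ KO and GILZ TG had Ccrl2 in first place after LPS as well.

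**Figure D2:**
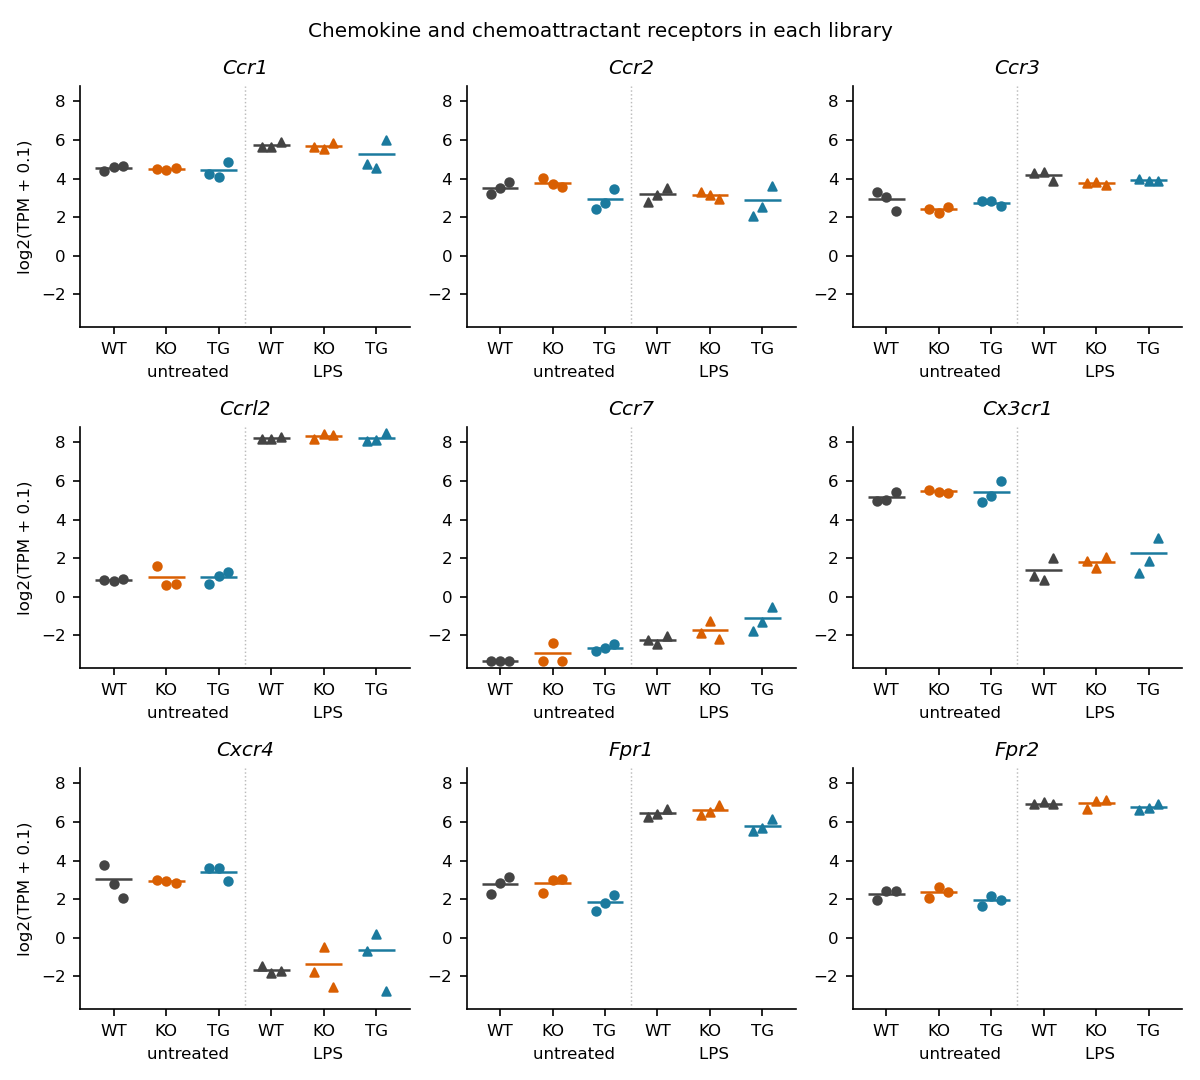
Level of each receptor in each of the 18 libraries as log2(TPM + 0.1) on a shared y axis, with circles for untreated and triangles for LPS libraries and a bar at the log2 of the mean TPM + 0.1 of each group of 3. Ccrl2, Fpr1 and Fpr2 move up by several log2 units after LPS in all genotypes, Cx3cr1 and Cxcr4 move down, Ccr2 stays in the same range, and Ccr7 remains under 1 TPM in every library.

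The first question was which of these receptors respond to LPS, and whether they do so in each genotype. Of the 8 receptors that passed the filter on low counts, the same 5 rose (Ccrl2, Fpr2, Fpr1, Ccr3 and Ccr1) and the same 2 fell (Cxcr4 and Cx3cr1) in WT, GILZ KO and GILZ TG at an adjusted p under 0.05 (edgeR quasi-likelihood test, Benjamini-Hochberg over 13169 genes), and Ccr2 did not pass in any. The response was broad over the whole transcriptome: 33.5% of all tested genes were called higher and 35.1% lower in WT, 33.2% and 35.4% in GILZ KO, and 33.6% and 35.1% in GILZ TG. Over the 8 receptors the log2 fold changes had their median at 1.84 in WT, 1.91 in GILZ KO and 1.63 in GILZ TG, against -0.02 for all genes in each genotype. These fits scaled libraries by TMM. Scaling by the library total instead moved the median gene by -0.68, -0.64 and -0.67 log2 units, and the share of calls that were higher went from 48.9% to 18.9% in WT, from 48.4% to 18.8% in GILZ KO and from 48.9% to 18.5% in GILZ TG. On that scale the same 5 receptors were called higher and the same 2 lower in every genotype. The median of the 8 receptors was then 1.158 in WT, 1.275 in GILZ KO and 0.943 in GILZ TG. For all genes it was -0.699, -0.66 and -0.691. TPM also sets each library to the same total, so ratios of mean TPM lie near that scale and not the TMM scale. For Ccrl2 in WT the log2 ratio of mean TPM was 7.42, against 7.37 by the library total and 8.05 by TMM. For Cx3cr1 in WT the same 3 values were -3.82, -3.87 and -3.20. In bulk RNA, a change in the number of cells that express a receptor and a change in its mRNA per cell cannot be told apart.

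Ccrl2, the chemerin-binding receptor, showed the greatest response. Its untreated TPM values were 1.72, 1.69 and 1.79 in WT, 2.92, 1.4 and 1.5 in GILZ KO, and 1.47, 1.99 and 2.33 in GILZ TG. After LPS they were 287.57, 291.68 and 311.24 in WT, 291.27, 345.07 and 329.18 in GILZ KO, and 274.22, 278.28 and 352.87 in GILZ TG. No LPS library came near an untreated one, and the genotypes overlapped within each treatment. The mean TPM rose 171-fold in WT, 166-fold in GILZ KO and 156-fold in GILZ TG, and the log2 fold changes were 8.05 ± 0.21 (SE), 7.98 ± 0.21 and 7.91 ± 0.21, with edgeR adjusted p = 1.52e-15, 2.25e-15 and 1.95e-15.

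The formyl peptide receptors rose next most. Fpr2 was at 3.76, 5.17 and 5.24 TPM in untreated WT and at 120.31, 130.86 and 121.06 TPM after LPS. In GILZ KO it went from 4.14, 6.17 and 5.08 to 100.21, 135.56 and 141.87 TPM, and in GILZ TG from 3.07, 4.34 and 3.74 to 98.43, 104.47 and 121.16 TPM. The treatments were wholly separate and the genotypes overlapped, with log2 fold changes of 5.39 ± 0.19 in WT, 5.29 ± 0.20 in GILZ KO and 5.52 ± 0.20 in GILZ TG (SE; highest edgeR adjusted p = 1.92e-13). Fpr1 was at 4.65, 6.97 and 8.73 TPM in untreated WT and at 77.02, 84.09 and 100.51 TPM after LPS. In GILZ KO its values were 4.94, 7.91 and 8.04 TPM before and 82.49, 91.63 and 117.18 TPM after LPS, and in GILZ TG 2.54, 3.36 and 4.55 TPM before and 46.00, 51.11 and 70.12 TPM after. Fpr1 thus began and ended lower in all 3 GILZ TG libraries than in WT, while its log2 fold change was 4.32 ± 0.26 in WT, 4.45 ± 0.26 in GILZ KO and 4.62 ± 0.28 in GILZ TG (highest adjusted p = 1.28e-10).

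The neighbours Ccr1 and Ccr3, receptors for inflammatory CC chemokines, rose by smaller amounts. Ccr1 went from 21.16, 24.40 and 24.92 to 48.92, 49.52 and 59.88 TPM in WT and from 22.46, 22.02 and 23.23 to 50.50, 46.84 and 56.42 TPM in GILZ KO. In GILZ TG it went from 19.00, 16.97 and 29.02 to 26.44, 23.27 and 64.30 TPM, so that replicates 1 and 2 after LPS lay below the third untreated library. The log2 fold change of Ccr1 was 1.79 ± 0.30 in WT, 1.82 ± 0.30 in GILZ KO and 1.44 ± 0.30 in GILZ TG (SE; highest edgeR adjusted p = 0.000382), and 1.82 ± 0.17 in GILZ TG with replicate 3 alone, where 1 library per arm is assumed to vary like the other groups. Ccr3 went from 9.89, 8.14 and 4.96 to 19.80, 20.06 and 14.58 TPM in WT, from 5.34, 4.62 and 5.56 to 13.39, 14.25 and 12.54 TPM in GILZ KO, and from 7.0, 7.11 and 5.82 to 15.79, 14.76 and 14.54 TPM in GILZ TG. All LPS libraries of Ccr3 were above all untreated ones, with log2 fold changes of 1.88 ± 0.17, 2.01 ± 0.18 and 1.81 ± 0.17. On the library total scale the log2 fold changes of Ccr1 and Ccr3 in WT were 1.12 and 1.2.

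Cxcr4, the Cxcl12 receptor, showed the steepest fall. Its TPM values were 13.31, 6.70 and 4.14 in untreated WT, 7.93, 7.57 and 7.0 in GILZ KO and 12.15, 12.10 and 7.68 in GILZ TG. After LPS 0.26, 0.18 and 0.20 TPM were left in WT, 0.19, 0.62 and 0.07 TPM in GILZ KO, and 0.52, 1.03 and 0.05 TPM in GILZ TG. These LPS values rest on 61 reads over 9 libraries, against 1845 reads in the 9 untreated libraries, and in single LPS libraries on as few as 1 read. The treatments did not overlap, and the log2 fold changes were -4.72 ± 0.52 in WT, -4.85 ± 0.58 in GILZ KO and -3.89 ± 0.43 in GILZ TG (SE; highest edgeR adjusted p = 9.77e-07). Of the 61 reads, GILZ TG replicates 1 and 2 gave 15 and 24 and GILZ TG replicate 3 gave 1, and with replicate 3 alone the fold change in GILZ TG was -6.47 ± 1.02. The part of the markers of other cells in the 2 former libraries in this value was not tested.

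Cx3cr1, the fractalkine receptor, went from 30.79, 32.57 and 43.48 to 2.0, 1.72 and 3.85 TPM in WT. It went from 45.50, 43.69 and 42.20 to 3.51, 2.68 and 4.14 TPM in GILZ KO, and from 29.67, 37.41 and 64.19 to 2.22, 3.49 and 8.29 TPM in GILZ TG. Replicate 3 of GILZ TG was the highest of all libraries in both treatments. The mean TPM was 14.1-fold lower after LPS in WT, 12.7-fold lower in GILZ KO and 9.38-fold lower in GILZ TG, and the log2 fold changes were -3.20 ± 0.42, -3.12 ± 0.42 and -2.67 ± 0.39 (highest edgeR adjusted p = 9.88e-06).

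Ccr2, the monocyte receptor for Ccl2, lay between 5.29 and 16.31 TPM in the untreated and between 4.13 and 12.23 TPM in the LPS libraries. Treatments overlapped in WT and GILZ TG, and in GILZ KO the 3 untreated libraries (16.31, 12.98 and 11.89 TPM) were above those after LPS (9.88, 8.66 and 7.49 TPM). The log2 fold changes were 0.29 ± 0.34 in WT, -0.02 ± 0.35 in GILZ KO and 0.56 ± 0.35 in GILZ TG (SE; edgeR adjusted p = 0.475, 0.963 and 0.171). Their direction depended on the scaling, with -0.39 in WT, -0.66 in GILZ KO and -0.13 in GILZ TG on the library total scale. Leaving out untreated replicate 3 or LPS replicate 1 of GILZ TG gave a called rise in GILZ TG (0.92 and 0.88, adjusted p = 0.0336 and 0.0335), and leaving out LPS replicate 3 gave -0.04. In GILZ TG, the untreated and LPS libraries of the same number deviated together. With the replicate number as a block the rise of Ccr2 was called in GILZ TG (0.53 ± 0.10, edgeR adjusted p = 0.000348). It was called in WT as well, but not in GILZ KO, while the 7 other receptors kept their calls.

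Ccr7, the lymph node homing receptor, was near the limit of detection in every library and did not pass the filter. It had 0, 0 and 0 reads in untreated WT, 0, 2 and 0 in GILZ KO and 1, 2 and 2 in GILZ TG. After LPS it had 3, 2 and 4 reads in WT, 4, 5 and 2 in GILZ KO, and 8, 11 and 13 in GILZ TG, with the highest level, 0.60 TPM, in replicate 3. In all, 7 reads were found in the 9 untreated and 52 in the 9 LPS libraries. In a fit without the filter the rise passed in each genotype (edgeR adjusted p = 0.00207 in WT, 0.01 in GILZ KO and 0.00306 in GILZ TG), and no genotype comparison passed, with adjusted p = 0.299 or higher. The dendritic cell markers Flt3, Zbtb46, Clec9a, Cd209a and Siglech together reached at most 0.92 TPM.

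**Figure D3:**
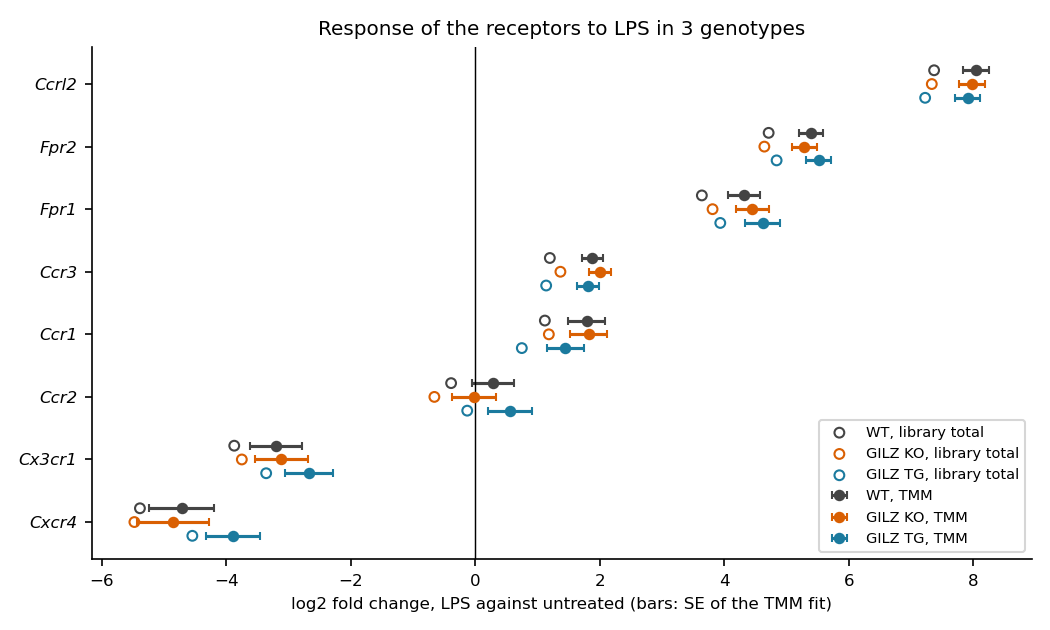
log2 fold change after LPS (x axis) of the 8 tested receptors in WT, GILZ KO and GILZ TG, with filled points and SE bars for the fit scaled by TMM and open points for scaling by the library total. The order of the receptors runs from Ccrl2 near 8 to Cxcr4 between -4.85 and -3.89, the genotypes lie close together, and only Ccr2 has filled and open points on different sides of 0.

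The second question was whether GILZ changes these LPS responses. None of the 8 tested receptors was called in the test of the difference between the LPS responses of GILZ KO and WT or of GILZ TG and WT, by edgeR or by DESeq2, and none had an unadjusted p under 0.05. Over all genes 0.0152% and 0.00759% were called by edgeR. The differences in log2 fold change ranged from -0.31 to 0.14 for GILZ KO against WT and from -0.35 to 0.83 for GILZ TG against WT, with SE between 0.238 and 0.976, so differences of this size in the less precise receptors could not be told from 0. With GILZ TG replicate 3 alone the differences from WT ranged from -1.75 (Cxcr4) to 0.91 (Cx3cr1), and none was called.

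The third question was whether the genotypes differ within a treatment. Without LPS, 0 of the 8 tested receptors were called in any of the 3 pairs by edgeR, where 0.0951% of all genes were called for GILZ KO against WT, 0.642% for GILZ TG against WT and 4.94% for GILZ KO against GILZ TG. At an unadjusted p under 0.05 there were 1, 2 and 2 receptors, and DESeq2 called 0, 0 and 1. The TPM values of the 2 groups did not overlap for 0 of 8 receptors in GILZ KO against WT (17.2% of all genes), 1 of 8 in GILZ TG against WT (14.9%) and 3 of 8 in GILZ KO against GILZ TG (28.7%). After LPS, 7 receptors were tested, since Cxcr4 and Ccr7 fell under the filter. None was called in GILZ KO against WT or in GILZ TG against WT by edgeR (1 and 2 at an unadjusted p under 0.05, 0 and 1 by DESeq2), where 0.0822% and 0.46% of all genes were called, and 1, Fpr1, was called in GILZ KO against GILZ TG, where 2.6% of all genes were. Groups did not overlap after LPS for 1 of 7 receptors in GILZ KO against WT (16.3% of all genes), 1 of 7 in GILZ TG against WT (15.2%) and 2 of 7 in GILZ KO against GILZ TG (20.6%). These shares are near those of all genes.

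Fpr1 was lower in GILZ TG in both treatments. Its mean in GILZ TG was 51.4% of the WT mean without LPS and 63.9% after LPS, and all 3 GILZ TG libraries lay below all 3 WT and all 3 GILZ KO libraries of the same treatment. After LPS, Fpr1 was higher in GILZ KO than in GILZ TG by 0.80 ± 0.18 on the log2 scale (SE; edgeR adjusted p = 0.0446). The difference from WT was -0.65 ± 0.18 (adjusted p = 0.135), and -0.28 ± 0.20 with replicate 3 alone. Without LPS the differences were -0.97 ± 0.30 for GILZ TG against WT (adjusted p = 0.191) and 0.95 ± 0.31 for GILZ KO against GILZ TG (adjusted p = 0.0924), and -0.57 and 0.56 with replicate 3 alone. The call in GILZ KO against GILZ TG was lost when any of GILZ KO LPS replicates 1, 2 and 3 or GILZ TG LPS replicates 1 and 2 was left out (adjusted p = 0.0831 to 0.16), and held without GILZ TG LPS replicate 3 (1.01, adjusted p = 0.00237). Without replicate 3 of GILZ TG, Fpr1 was also called in GILZ TG against WT after LPS (-0.86, adjusted p = 0.00699) and in GILZ KO against GILZ TG without LPS (1.19, adjusted p = 0.0495). With GILZ TG replicate 3 alone the difference between GILZ KO and GILZ TG after LPS was 0.42 ± 0.20 (adjusted p = 0.468), as this library had the highest Fpr1 of the 3 at 70.12 TPM. Replicates 1 and 2, at 46.00 and 51.11 TPM, are those with high sums of neutrophil lineage and stromal markers, whose part in the result was not tested.

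Ccr1 and Ccr2 split the GILZ TG libraries along the same line. After LPS, Ccr1 was at 26.44 and 23.27 TPM in GILZ TG replicates 1 and 2, below the 46.84 to 64.30 TPM of all 7 other LPS libraries, among which replicate 3 was the highest. Ccr2 was at 4.13 and 5.65 TPM in the same 2 libraries and at 12.23 TPM in replicate 3, against 6.79 to 11.37 TPM in WT. The log2 difference of Ccr1 between GILZ TG and WT after LPS was -0.48 ± 0.31 (SE; edgeR adjusted p = 0.516), -1.10 ± 0.11 without GILZ TG LPS replicate 3 (adjusted p = 0.000375) and 0.32 ± 0.13 with replicate 3 alone (adjusted p = 0.585). Against GILZ KO the corresponding values for GILZ KO minus GILZ TG were 0.43, 1.05 and -0.37. Without LPS, Ccr2 was at 5.29, 6.64 and 10.99 TPM in GILZ TG and at 9.04, 11.25 and 14.24 TPM in WT, a log2 difference of -0.61 ± 0.27 (adjusted p = 0.345) that became -0.99 without GILZ TG untreated replicate 3 (adjusted p = 0.0306) and -0.06 with replicate 3 alone. Between GILZ KO and GILZ TG without LPS, Ccr2 differed by 0.81 ± 0.27 (adjusted p = 0.104), by 1.19 without GILZ TG untreated replicate 3 (adjusted p = 0.00955) and by 0.25 with replicate 3 alone.

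Ccr3 was lower in GILZ KO, at 67.5% of the WT mean without LPS and 73.8% after LPS. After LPS the 3 GILZ KO libraries (13.39, 14.25 and 12.54 TPM) lay just below the lowest WT library (14.58 TPM), and without LPS WT replicate 3 (4.96 TPM) fell within the GILZ KO range. The log2 difference was -0.60 ± 0.19 without LPS (edgeR adjusted p = 0.403) and -0.45 ± 0.13 after LPS (adjusted p = 0.287), and the latter was called only without WT LPS replicate 3 (-0.60, adjusted p = 0.0361). GILZ TG against WT after LPS gave -0.27 ± 0.12 (adjusted p = 0.323). Ccrl2, Fpr2, Cx3cr1 and Cxcr4 had no unadjusted p under 0.05 between genotypes in either treatment where tested. Cx3cr1 depended on the GILZ TG libraries used. Its log2 difference between GILZ TG and WT was 0.87 ± 0.44 after LPS (edgeR adjusted p = 0.383) and 0.29 ± 0.25 without LPS (0.677), and with replicate 3 alone 1.76 ± 0.33 (0.0737) and 0.85 ± 0.18 (0.21). For GILZ KO minus GILZ TG it was -0.50 after LPS and -0.03 without LPS, and -1.4 and -0.60 with replicate 3 alone (adjusted p = 0.153 and 0.178).

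**Figure D4:**
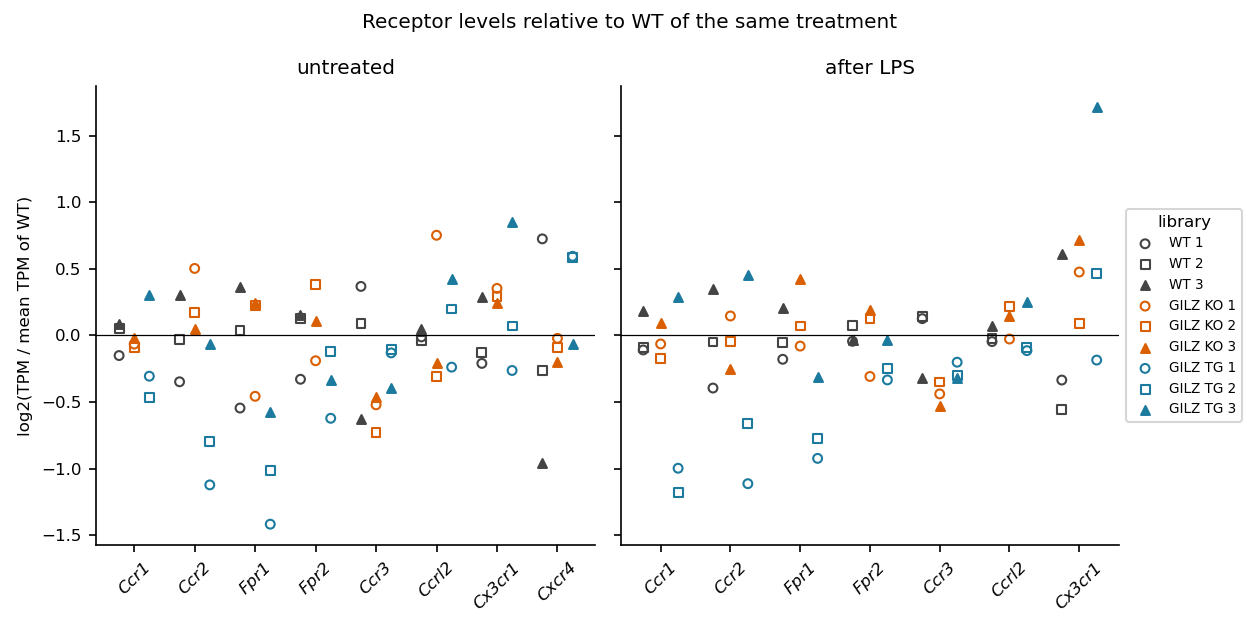
log2 of TPM over the mean TPM of WT of the same treatment (y axis) for each library of the 8 (untreated, left) or 7 (after LPS, right) tested receptors, with colour for genotype and open circles, open squares and filled triangles for replicates 1, 2 and 3. Open GILZ TG symbols lie below the triangle for Ccr1, Ccr2 and, except untreated, Fpr2, all GILZ TG symbols lie below all WT symbols for Fpr1, and the GILZ TG triangle is highest for Cx3cr1.

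The other receptors of the family were mostly silent. Of 17 further chemokine receptors, 14 stayed under 1 TPM in all 18 libraries. Cxcr3 fell from 7.82 ± 0.707 to 4.12 ± 0.112 TPM in WT. Its log2 fold change was -0.29 ± 0.12 by TMM (edgeR adjusted p = 0.0396) and -0.97 on the library total scale. In each genotype 3 of the 4 tested genes of this list rose and 1 fell, with medians of 2.85, 2.57 and 2.75. Ccr9 and Xcr1, named here for their low level, were among those that rose (5.11 and 4.14 in WT). They reached at most 1.19 and 0.39 TPM in any library, so these medians rest on genes near the floor. Of 17 further chemoattractant receptors in the files, 9 stayed under 1 TPM and 7 were tested, of which 3 rose and 4 fell in each genotype (medians -0.29, -0.31 and -0.38). On the library total scale 1 of those 3 no longer passed in GILZ TG. Ptafr, the platelet-activating factor receptor, rose from 65.2 ± 8.24 to 167 ± 11.8 TPM in WT, whereas Gpr183, an oxysterol receptor, fell from 25.2 ± 3.49 to 0.76 ± 0.21 TPM and S1pr1, the sphingosine-1-phosphate receptor, from 18.1 ± 0.357 to 2.81 ± 0.475 TPM. None of these genes was called between genotypes.

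Most ligands of the 9 receptors rose after LPS. Of 19 listed ligands 15 were tested, and 13 rose in WT, 13 in GILZ KO and 12 in GILZ TG, with none lower (medians 4.11, 4.03 and 3.65). On the library total scale 12 rose in each genotype. Ccl5, a ligand of Ccr1 and Ccr3, rose from 4.34 ± 0.0781 to 5936 ± 234 TPM in WT, Saa3, an acute-phase protein whose family binds Fpr2, from 14.7 ± 6.34 to 1626 ± 667 TPM, and Ccl8 from 0.297 ± 0.166 to 30.5 ± 3.5 TPM. Between genotypes and without LPS, Ccl3 and Ccl4 were below the GILZ TG level in GILZ KO (-0.42 ± 0.08 and -0.61 ± 0.14, edgeR adjusted p = 0.0234 and 0.0416), and Saa3 was higher in GILZ KO than in GILZ TG after LPS (1.39 ± 0.32, adjusted p = 0.0476). With GILZ TG replicate 3 alone these 3 differences were -0.53, -0.75 and 0.75 and none was called (adjusted p = 0.0943, 0.133 and 0.427). Cx3cl1, the ligand of Cx3cr1, named here after its values were seen, rose in WT (log2 fold change 3.19 ± 0.18) while its receptor fell, and Cxcl12, the ligand of Cxcr4, did not pass in any LPS comparison.

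Genes that carry or end receptor signals moved in both directions. All 30 listed genes found in the files were tested, and 18 rose and 7 fell in WT, 16 and 9 in GILZ KO, and 17 and 9 in GILZ TG (medians 0.36, 0.24 and 0.33). On the library total scale 9 rose and 18 fell in each genotype, so the balance of this list depended on the scaling. Rgs16, which shortens G protein signals, rose from 3.75 ± 0.918 to 19.8 ± 3.83 TPM in WT and Pik3r6, a regulator of phosphoinositide 3-kinase gamma, from 9.9 ± 0.54 to 47.1 ± 8.05 TPM, and each was also called on the other scale. Without LPS, Plcb2, a phospholipase C downstream of these receptors, was lower in GILZ TG than in WT (-0.42 ± 0.07, edgeR adjusted p = 0.0397) and higher in GILZ KO than in GILZ TG (0.49 ± 0.08, adjusted p = 0.0111). Pik3cg, the catalytic subunit of the same kinase, was higher in GILZ KO than in GILZ TG without LPS (0.23 ± 0.05, adjusted p = 0.0406) and after LPS (0.50 ± 0.11, adjusted p = 0.0407). Rgs2, another regulator of G protein signals, stood lower in GILZ KO relative to GILZ TG without LPS (-0.48 ± 0.09, adjusted p = 0.0193) and after LPS (-1.15 ± 0.14, adjusted p = 0.00496), and so did Rgs10 without LPS (-0.34 ± 0.05, adjusted p = 0.00645). With GILZ TG replicate 3 alone, Rgs2 was still called without LPS (-0.68, adjusted p = 0.0187) and after LPS (-1.17, adjusted p = 0.0401), whereas Rgs10 (-0.35, adjusted p = 0.091), Plcb2 (-0.32 against WT and 0.39 for GILZ KO against GILZ TG, adjusted p = 0.353 and 0.121) and Pik3cg (0.18 and 0.30, adjusted p = 0.279 and 0.427) were not. The part of the cell markers that stood high in GILZ TG replicates 1 and 2 in these calls was not tested. Against WT, Rgs2 did not pass in the fits of 9 libraries. Without LPS its differences were 0.40 ± 0.09 in GILZ TG (edgeR adjusted p = 0.0823) and -0.08 ± 0.09 in GILZ KO (0.801). With GILZ TG replicate 3 alone, GILZ TG against WT without LPS was 0.60. After LPS the differences from WT were 0.63 ± 0.14 in GILZ TG (0.0848) and -0.52 ± 0.14 in GILZ KO (0.273).

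For each receptor the genes with the most similar pattern were sought by Pearson's r of log2(TPM + 1) over the 18 libraries among 9423 genes of at least 5 TPM on average. The libraries share the LPS contrast, which sets most of these values. Ccrl2 was closest to Nos2, Ifi211 and Il6 (r = 0.999 each), Fpr2 to Upp1 (0.999), Gm49342 and Mxd1 (0.997 each), and Fpr1 to Sod2 (0.996), Fcgr2b and Tlr2 (0.992 each). Cxcr4 was closest to Atn1, Ppp1r3e (0.99 each) and Eif2ak1 (0.989), and Cx3cr1 to Taf8 (0.99), Tmco1 (0.989) and Ccni (0.988). Ccr3 was closest to Zfand5 (0.978), Riox2 (0.965) and B430306N03Rik (0.962), and Ccr1 to Flrt3 (0.967), Cysltr1 (0.957) and Btg1 (0.956). Ccr2 was closest to Lilra6 (0.938), Ugt1a6a (0.921) and Hacd4 (0.905), and Ccr7, at its low counts, to Slc37a3 (0.854), Arl5c (0.851) and Tpgs2 (0.838).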

How the data were processed

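Poly(A) RNA libraries were strand-specific and sequenced with single reads of 75 nt. The authors ran quality control with FastQC 0.11.2, aligned and quantified reads with the grape-nf pipeline on GRCm38 (mm10), and deposited for each library estimated counts (expected counts) and TPM per gene. Their DESeq2 1.40.2 comparison tables hold fold changes and p-values, which were not used. Only their pairing of gene identifiers with symbols was taken. The members and all gene and marker lists were chosen with earlier results of these data known.

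Estimated counts were rounded and tested in R 4.3.3 with edgeR 4.0.16 (filterByExpr, TMM, quasi-likelihood test, Benjamini-Hochberg over all genes tested). LPS responses and their differences came from 1 fit of 18 libraries, genotype comparisons from 9 libraries of 1 treatment, and genes with an adjusted p under 0.05 were called. Printed SE are the log2 fold change divided by the square root of F. The test was tried on simulated counts first. Rows without a gene identifier held 0 counts. The study gives 3 mice per group and calls each dot of its principal component plots an independent preparation. The labels do not pair untreated with LPS libraries. Deviations from the group means of same-numbered untreated and LPS libraries correlated at r = 0.266, 0.397 and 0.605 in GILZ TG. The values were 0.264, -0.013 and 0.055 in WT and -0.033, 0.086 and 0.095 in GILZ KO. Such correlations cannot show whether 2 libraries came from the same mouse, and the main fit has no block. Limits for a count of 0 are 3 counts and cover counting error only. Genes named beside the 9 receptors were the 3 of each list with the largest called change after LPS in WT and at least 5 TPM in 1 group, and those called between genotypes, with Tsc22d3 and Lyz2 as checks. Some genes that this rule selects are not reported here. Alternatives were DESeq2 1.42.0, its size factors, no filter, other libraries in the fit, a replicate block and leaving out each library. Scaling by the library total and GILZ TG replicate 3 alone were chosen after seeing the data. Motif searches used RefSeq start regions of GRCm38.p6 and gene positions GENCODE annotation of GRCm38, matched by identifier without version.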

Additional observations from a re-analysis of the deposited data

How the results depend on the processing

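The counts of receptors called after LPS (7 in each genotype) and in the differences of LPS responses (0) stayed within 1.5 times under every alternative run. Without LPS, DESeq2 called 1 receptor (Fpr1) in GILZ KO against GILZ TG. After LPS, DESeq2 and the fit without a filter each called 1 (Fpr1) in GILZ TG against WT, where edgeR called 0. With GILZ TG replicate 3 alone 0 were called in GILZ KO against GILZ TG. Leaving out single libraries gave 0 to 2 called receptors without LPS when GILZ TG was set against WT and 0 to 2 when it was set against GILZ KO, and 0 to 1, 0 to 3 and 0 to 3 after LPS in GILZ KO against WT, GILZ TG against WT and GILZ KO against GILZ TG. The highest of these came without replicate 3 of GILZ TG, or, in GILZ KO against WT, without WT LPS replicate 3.

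Ccr2 reversed its direction after LPS when scaled by the library total, to -0.39 in WT and -0.13 in GILZ TG. In GILZ KO it was 0.008 by DESeq2 and by DESeq2's size factors and between -0.15 and 0.112 with single libraries left out, which gave -0.043 to 0.922 in GILZ TG. Ccr1 after LPS reversed with GILZ TG replicate 3 alone, to 0.32 for GILZ TG against WT and -0.37 for GILZ KO against GILZ TG. The cause was not tested.

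Across genotypes, 2 of 18 pairs of libraries with the same number had a correlation of deviations over 0.1 (from -0.14 to 0.24). The labels give no link between such libraries beyond the number. With the replicate number as a block, without LPS 1 receptor (Fpr1) was called for GILZ TG against WT and 1 for GILZ KO against GILZ TG, after LPS 1 for GILZ TG against WT, and Ccr2 was called higher after LPS in WT (0.28) and GILZ TG (0.53).

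Over all genes, the number called in genotype comparisons moved by more than 1.5 times between settings, from 12 to between 5 and 79 for GILZ KO against WT, from 81 to between 16 and 665 for GILZ TG against WT and from 623 to between 34 and 1306 for GILZ KO against GILZ TG without LPS, and from 10 to between 4 and 100, from 56 to between 15 and 1067 and from 316 to between 24 and 1403 after LPS. The differences of LPS responses gave 1 to 20 and 0 to 8 genes where edgeR called 2 and 1. Low counts limit Ccr7 and, after LPS, Cxcr4.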
